A study of Homo sapiens with 2 samples.

Results

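The YB-1 PAR-CLIP clusters in the ubiquitin-encoding genes UBB and RPS27A were examined in HEK293T, a line derived from human embryonic kidney. A cluster was taken when it shared at least 1 base with the span of either gene on the same strand in GENCODE release 44. This gave 1 of the 1382 clusters of Rep.A and 1 of the 2011 clusters of Rep.B, both in RPS27A and at the same position. UBB held 0 clusters in either replicate. The genes were chosen by the clusters seen in these tables, so the presence of a cluster is a description and was not tested. PAR-CLIP marks the bases that a protein touches, because 4-thiouridine in RNA is crosslinked by UV light and then read as C in place of T. The cells of both replicates carried the wt genotype. They were given 100 µM 4-thiouridine for 16 h and irradiated at 365 nm with 0.15 J/cm2. There was 1 condition, with 2 independent replicates and no control library, so conditions were not compared. The tables list called clusters alone, so the level of each mRNA in these cells is unknown here.

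Ubiquitin is a small protein that is attached to other proteins to mark them for degradation by the proteasome or to alter their activity. No human gene encodes it as a free protein. Polyubiquitin genes such as UBB encode several ubiquitin units joined head to tail, and fusion genes such as RPS27A encode 1 unit joined to a ribosomal protein, here eS31 of the small subunit. Deubiquitinases cut these precursors into free ubiquitin. YB-1 (YBX1) is a cold shock domain protein that binds many cytoplasmic mRNAs and takes part in the control of their translation.

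The cluster of RPS27A (ENSG00000143947, chromosome 2 of hg38 from 55231903 to 55235853, plus strand) lay at chr2:55232848-55232870 in both replicates. Its sequence is shown first because it is the one called site of these genes, and the same bases were called at a pseudogene. RNA is written as DNA, 5′ to 3′, and the capitals mark the tetramers CATC and CACC, which share 1 C:
RPS27A: tacggggaagacCATCACCctcg
UBB unit 1: tacCggCaagaccatcaccctTg
UBB unit 2: GacCggCaagaccatcaccctGg
UBB unit 3: GacCggCaagaccatcacTctGg
In the UBB lines the capitals mark the bases that differ from the RPS27A site. Each of these lines is the stretch of the UBB unit at the same codons, at chr17:16381931-16381953, chr17:16382159-16382181 and chr17:16382387-16382409 on the plus strand. With positions counted from 1 at the 5′ end of the RPS27A site, unit 1 differed by G4C, G7C and C22T. Unit 2 differed by T1G, G4C, G7C and C22G, and unit 3 by the same 4 changes and C19T. CATC was found in the stretch of all 3 units. CACC was found in units 1 and 2, and not in unit 3, where C19T falls in it.

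In the selected RPS27A transcript, ENST00000272317.11, the mRNA has 785 bases in 6 exons and encodes 76 codons of ubiquitin followed by 80 codons of eS31. The site lay in exon 2, in the coding sequence, at bases 62 to 84 of the mRNA. It covered bases 24 to 46 of the 228 bases of the ubiquitin unit, and held codons 9 to 15 in full. Codon 11 is that of a lysine to which further ubiquitin can be joined in chains. The site began 23 bases past the start of the coding sequence and ended 2 bases before the end of exon 2, which has 65 bases. No cluster was called in the part of the mRNA that encodes eS31 or in either UTR. Neither RPS27A cluster was over 60 bases wide, and both had a width of 23 bases and ended in G, the base after which RNase T1 cleaves. Most clusters ended in G, 83.1% of all those in Rep.A and 77.7% in Rep.B.

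The mean coverage of the RPS27A cluster, the deposited reads per base without scaling for depth, was 150.6 reads for Rep.A, and for Rep.B it was 344.3. By coverage the cluster ranked 71 of all 1382 clusters of Rep.A and 84 of all 2011 of Rep.B. It was 12.5 times the median of all clusters in Rep.A (12.1 reads) and 13.8 times that in Rep.B (25 reads). Among the fewer clusters in exons of nuclear protein-coding genes it ranked 2 of 735 in Rep.A and 3 of 942 in Rep.B, where the medians were 13.0 and 32.9 reads. RPS27A is also one of the cytosolic ribosomal protein genes. Of 27 pairs of overlapping clusters in such genes, its pair had the highest coverage in both replicates, and the median of those pairs was 14.8 reads for Rep.A and 24.5 for Rep.B.

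**Figure D1:**
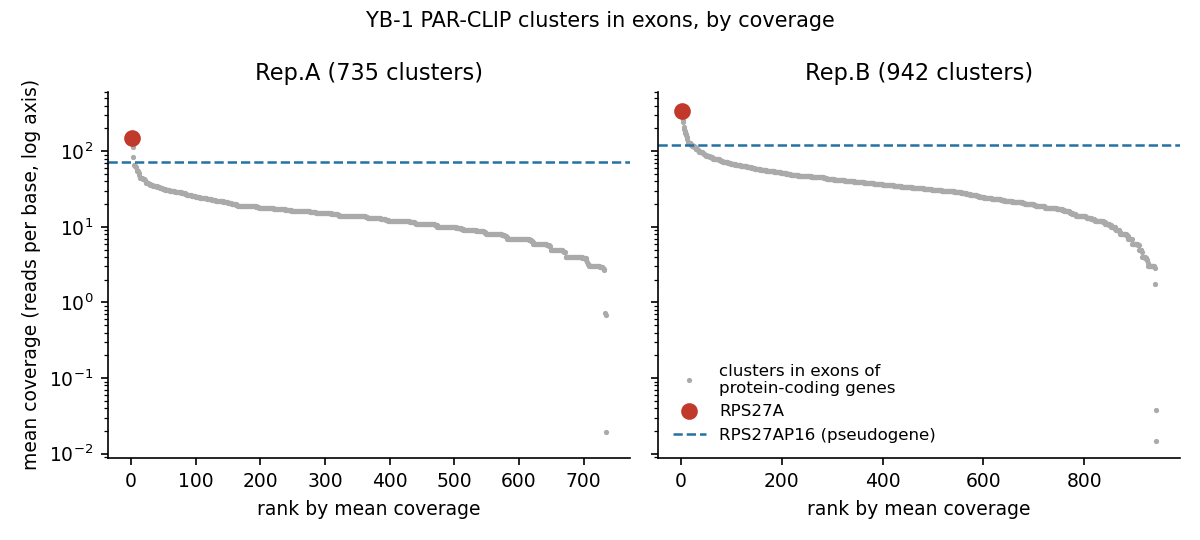
Mean coverage in reads per base (log axis) of every cluster in exons of nuclear protein-coding genes, against its rank, in Rep.A (735 clusters) and Rep.B (942). The red point is RPS27A, at rank 2 with 150.6 reads and at rank 3 with 344.3, and the dashed line is the cluster of the pseudogene RPS27AP16, at 71.3 and 120.9 reads.

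Rep.B had 2.29 times the coverage of Rep.A at RPS27A, a log2 difference of 1.19. Over all 1116 pairs of overlapping clusters the median log2 difference was 1.38, and the lower and upper quartiles were 1.04 and 1.67. The ratio of RPS27A thus lay within the middle range of pairs. The cluster held 0.310% of the covered bases of Rep.A and 0.229% of those of Rep.B, where covered bases are mean coverage times width.

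The crosslinking measures of the site did not stand out as its coverage did. In both replicates T-to-C transitions were counted at 1 of the 3 T bases, which gives the deposited crosslinking efficiency of 0.33. The T bases lie at positions 1, 15 and 21 of the site, and the one at 15 is the T of CATC. The tables do not say which of them carried the transitions. A single T position with transitions was also the count in 1191 of the 1382 clusters of Rep.A and 1720 of the 2011 of Rep.B. The relative log odds, the deposited score of the transitions divided by the number of T bases, was 0.147 in Rep.A, against a median of 0.150 over that replicate. In Rep.B it was 0.206, against a median of 0.192. By this score the cluster ranked 710 of 1382 and 878 of 2011.

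The 23-base sequence occurred at 2 places on the chromosomes of hg38, in RPS27A and in RPS27AP16 (ENSG00000224631), a transcribed processed pseudogene on chromosome 16. Both places held a cluster of the same extent in both replicates. The pseudogene's cluster lay at chr16:61055869-61055891 on the minus strand, where coverage averaged 71.3 reads per base (Rep.A) and 120.9 (Rep.B). Around the site, the RPS27A mRNA and RPS27AP16 were identical over 111 bases, 40 of them before the site and 48 after it. In the genome, where exon 2 ends 2 bases after the site, the identity continued for 4 bases past the site. Reads were aligned to the genome. Within the stretch of 111 bases, a spliced read that runs more than 2 bases into exon 3 therefore matches the pseudogene exactly. It has no exact match at RPS27A in the genome.

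Coverage was divided unequally between both loci. RPS27A held 67.9% of their summed coverage in Rep.A, 2.11 times the coverage of the pseudogene. For Rep.B the share was 74.0% and the ratio 2.85. The summed coverage, 222.0 reads for Rep.A against 465.1 for Rep.B, differed by 1.07 on the log2 scale, and the difference at the pseudogene alone was 0.76. The pseudogene's difference was thus below the lower quartile of all 1116 pairs, 1.04, and that of the sum was just above it. By the score of the transitions, the order of both loci was the reverse of that by coverage. The pseudogene had a relative log odds of 0.288 (Rep.A) and 0.377 (Rep.B), higher than RPS27A in each replicate, with transitions counted at 1 of 3 T bases there too. The read counts behind the coverage are not in the tables, so these shares have no interval. Whether the reads at either locus came from RPS27A mRNA or from a transcript of the pseudogene cannot be told apart by their sequence within the site.

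Such shared sequence was common among clusters of this width. Of the 182 clusters of 23 bases in Rep.A, 69 (37.9%) had more than 1 exact copy in the genome, and so had 123 of 267 (46.1%) in Rep.B.

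GENCODE lists 19 pseudogenes named after RPS27A and 5 named after UBB. RPS27AP16 alone of the 24 held a cluster, in either replicate. The 5 nearest of the others, chosen after their values were seen, are given as the loci that differ least from the called site. In each, the window of 23 bases closest to the RPS27A site was found, and capitals mark the bases that differ:
RPS27AP5: taTggggaagaccatcaccctcg
RPS27AP11: tacggAgaagaccatcaccctcg
RPS27AP12: tacggggaagaccatcaccctcA
RPS27AP7: taTggggaagaccatcaccctcC
RPS27AP19: tacAgggaagaccaCcaccctcg
RPS27AP5, at chr1:192716206-192716228, differed by C3T alone, RPS27AP11, at chr6:113581524-113581546, by G6A and RPS27AP12, at chr7:157192391-157192413, by G23A. RPS27AP7, at chr2:47883478-47883500, differed by C3T and G23C. RPS27AP19, at chr19:7665740-7665762, differed by G4A and by T15C, the change that a crosslinked T at this position would show in a read. All 5 windows are on the plus strand. A further 4 pseudogenes of RPS27A had 3 mismatches and 9 had more, up to 12. The UBB pseudogenes had 4 to 6. CATC and CACC were both in the window of 8 of the 19 RPS27A pseudogenes, and 7 of these 8 held no cluster. The authors' alignment took the best match of a read, so a read identical to the RPS27A site would go to a locus without mismatches. Transcription of the pseudogenes without a cluster was not measured here, and whether YB-1 tells these sequences apart was not tested.

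**Figure D2:**
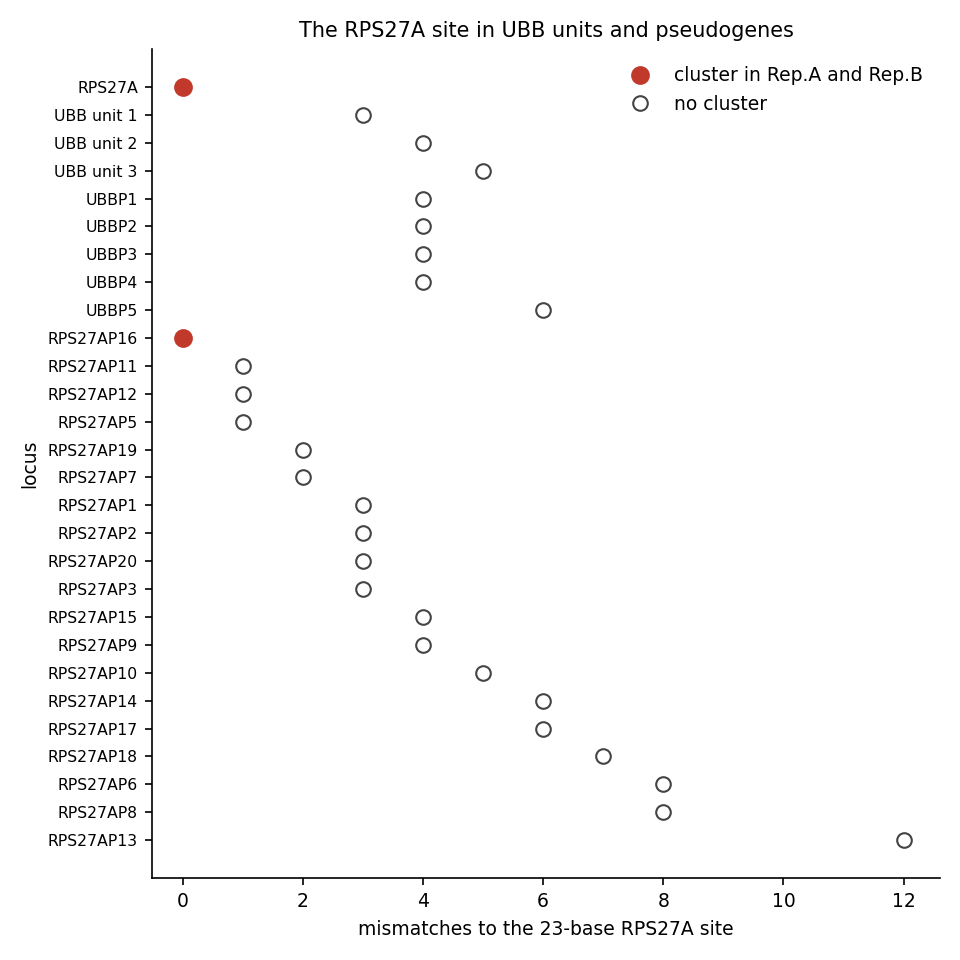
Mismatches to the 23-base RPS27A site (x axis) in RPS27A itself, the 3 ubiquitin units of UBB, and the closest window of each pseudogene of UBB and RPS27A (y axis). Filled points held a cluster in both replicates, which were RPS27A and RPS27AP16 with 0 mismatches, and open points, with 1 to 12 mismatches, held none.

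UBB (ENSG00000170315, chromosome 17 from 16380798 to 16382745, plus strand) encodes 3 ubiquitin units and 1 further codon in its 933-base transcript ENST00000302182.8. All 3 units lie in exon 2, so no junction interrupts them, and the third unit ends at 16382591. No cluster was called in any unit, in either UTR or in the intron. In the calling by the authors, a position with a substitution needed a coverage of at least 3 reads and a cluster a width of at least 10 bases. The authors also kept only T-to-C substitutions of high confidence. The tables give coverage within clusters alone, so any binding of UBB that did not meet these conditions was not detectable.

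The tetramers were present in the UBB mRNA, which held no cluster. Whether they bear on where clusters were called was not tested. The UBB mRNA holds CATC 14 times and CACC 8 times, all of them in the ubiquitin units. The RPS27A mRNA holds CATC 3 times and CACC 5 times, of which 2 and 1 lie in its unit. Of the 911 windows of 23 bases along the UBB mRNA, 30.7% held CATC, 17.6% CACC and 9.33% both. Of the 763 windows along the RPS27A mRNA, 7.08% held CATC, 12.7% CACC and 2.49% both, and the called site is one of the last kind. Among all clusters, both tetramers were in 184 of 1382 (13.3%) in Rep.A and 238 of 2011 (11.8%) in Rep.B. Joined as CATCACC, as in RPS27A, they were in 43 (3.11%) and 63 (3.13%). These tetramers were searched on the strand of the RNA alone.

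Most of the coding sequence of both genes is not present once in the genome. In the ubiquitin unit of RPS27A, 193 of 206 windows of 23 bases (93.7%) had more than 1 exact copy, and in the part that encodes eS31, 210 of 218 (96.3%) did. Windows across an exon junction of RPS27A are counted too, and their copies lie outside the gene itself. In the 3 units of UBB, 535 of 662 windows (80.8%) did, with up to 15 copies. The stretches of UBB that match the RPS27A site had 1 copy in unit 1, 4 copies in unit 2 and 1 copy in unit 3. The bowtie setting of the authors reports 1 place for a read that matches several, so coverage of such windows can be spread over copies. Its part in the absence of a UBB cluster was not tested.

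**Figure D3:**
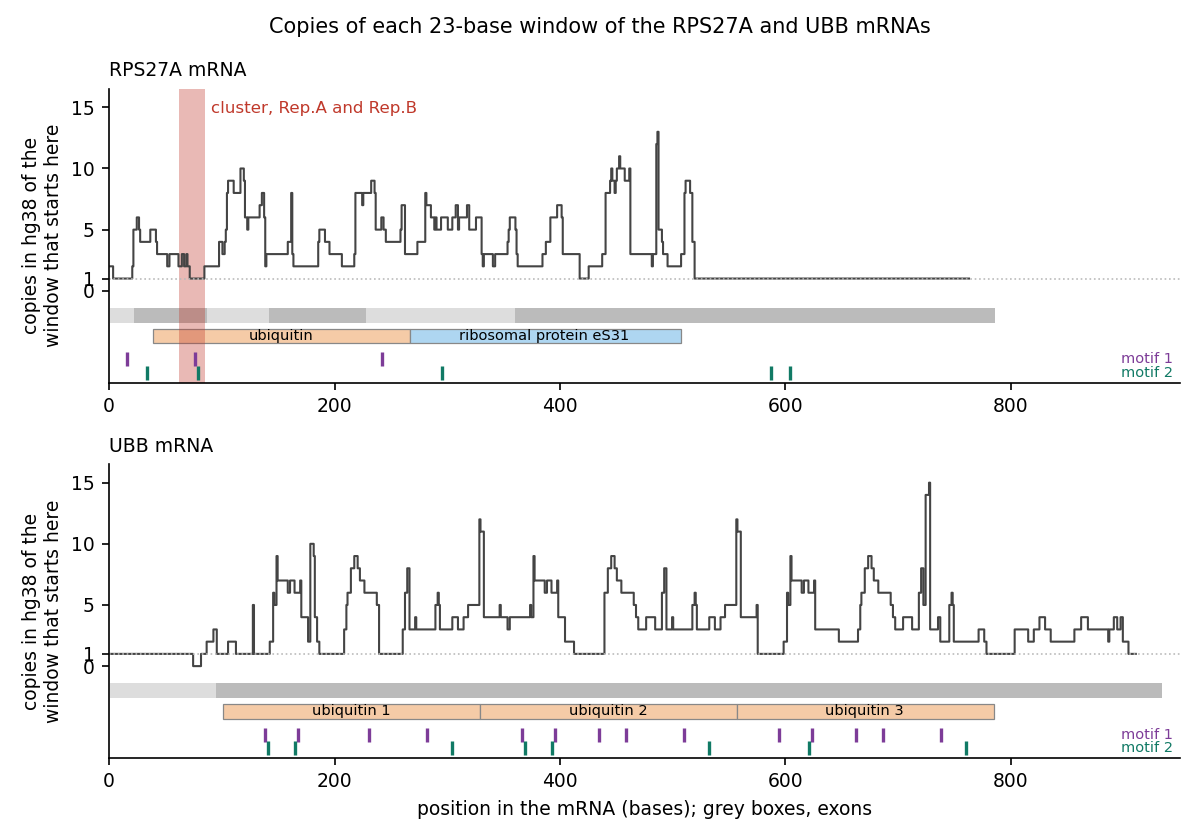
Number of exact copies in hg38, on both strands, of the 23-base window that starts at each base of the RPS27A mRNA (785 bases) and the UBB mRNA (933 bases). Grey boxes are exons, orange boxes ubiquitin units, the blue box the eS31 part, and ticks the tetramers CATC (motif 1) and CACC (motif 2). The red band is the cluster of both replicates, at bases 62 to 84 of RPS27A. UBB holds more ticks and has no such band, and a link between ticks and clusters was not tested.

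The enzymes that attach, remove and read ubiquitin were counted from lists of 116 genes. Of all 20046 protein-coding genes, 3.32% had a reproducible region, which is a stretch with overlapping clusters of both replicates in the span of the gene. In the lists, 8 genes (6.90%) did. In an exon, a region was found in 2.87% of all protein-coding genes and in the same 8 listed genes. With a coverage of at least 10 reads in each replicate, the counts were 2.49% and 6 genes. These shares were not compared by a test, and the abundance of the transcripts was not measured. The 8 genes held 10 regions, 6 in coding sequence and 4 in other exonic sequence. Coverage of these regions was from 5.91 to 30.9 reads in Rep.A and from 3.91 to 70.9 in Rep.B. The RPS27A cluster exceeded the highest of them by 4.88 times in Rep.A and 4.86 times in Rep.B.

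Of 8 activating (E1) enzymes, which begin the transfer of ubiquitin or a related protein, 1 had a region. This was UBA1, the main E1 of ubiquitin, with 19 reads (Rep.A) and 50 (Rep.B) in exonic sequence outside the coding sequence. Of 34 conjugating (E2) enzymes, which take ubiquitin over from the E1, 4 had a region. UBE2D3, an E2 that works with many ligases, had the highest coverage of the lists, 30.9 and 70.9 reads in its coding sequence. UBE2C, which works with the anaphase-promoting complex, had 7 reads (Rep.A) and 47 (Rep.B) in its coding sequence. UBE2S, which extends chains on substrates of that complex, was the one region of the 10 that was lower in Rep.B, with 5.91 and 3.91 reads, and its sequence had 3 copies in the genome. UBE2V2, a variant E2 without the catalytic cysteine, had 13.8 and 22.6 reads.

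Of 30 ligases (E3) and subunits of cullin ligases, which select the substrate, 2 had a region. SKP2, which recognises substrates for a cullin ligase of the cell cycle, had 2 regions in its coding sequence, with 18 and 6 reads in Rep.A and 48.0 and 19 in Rep.B. Of 20 deubiquitinases, 1 had a region, OTUD5, with 2 regions in its coding sequence of 8 and 15 reads in Rep.A and 25 and 45 in Rep.B. No region was found in 14 ubiquitin-like modifiers, among them FAU, which encodes a ubiquitin-like protein fused to a ribosomal protein, or in 10 receptors and shuttles. With a region in 3.32% of all protein-coding genes, counts of 0 in lists this short do not set them apart. Of the 10 regions, 8 had a sequence that occurs once in the genome. CATC was in 2 of them, CACC in 5 and both in 0. Of the full set of Rep.A clusters, 36.3% held CATC, 35.7% held CACC and 13.3% held both. The corresponding Rep.B shares were 32.9%, 34.0% and 11.8%. The 10 regions are few, and whether they differ from these shares was not tested.

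**Figure D4:**
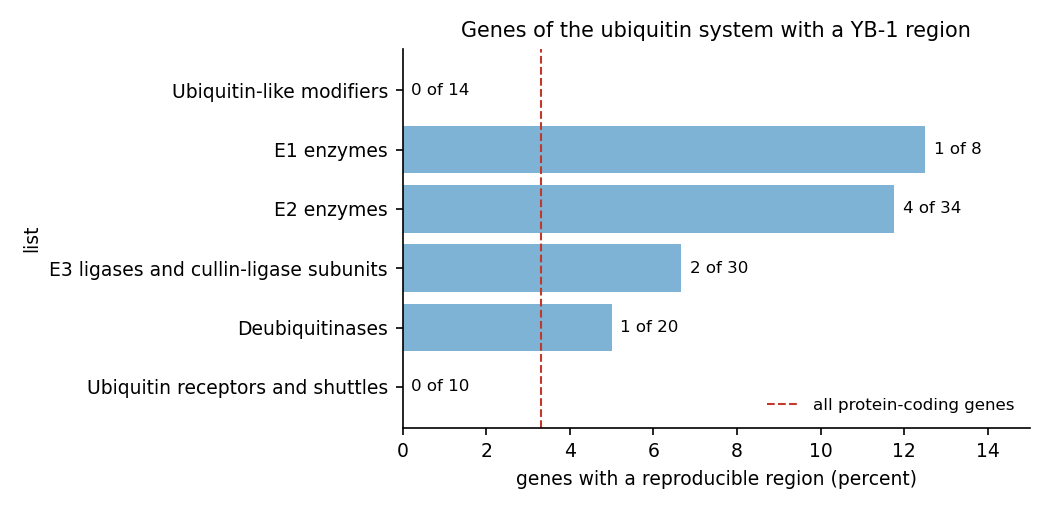
Percent of the genes of each list with a reproducible YB-1 region (bars, with counts), and the 3.32% of all protein-coding genes (dashed line). The E2 list of 34 genes holds 4 of the 8 genes, and the modifier and receptor lists, of 14 and 10 genes, hold 0.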

How the data were processed

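YB-1 PAR-CLIP of wild-type HEK293T cells was analysed in 2 replicates. Per the submitters' notes, cutadapt 2.10 was used for trimming and Bowtie 1.0.0 for alignment to hg38. wavClusteR was run on every replicate separately. The deposited tables give coverage as an unscaled signal (mean reads over the bases of a cluster), and the authors list beside it counts of T positions with transitions and of T bases, the crosslinking efficiency as a fraction, and log odds as a score. Totals of mapped reads were not used here, and coverage was compared within a replicate or as the ratio of replicates without correction for depth. Replicates are of 1 condition, and no test was run.

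All 3393 deposited sequences matched hg38. Those of minus-strand clusters are written as the plus strand, and were reversed here. Transcripts are the Ensembl canonical ones of GENCODE release 44. Exact copies of windows were counted on both strands of the assembled chromosomes. Overlap was at least 1 base on the same strand. The genes named are UBB, RPS27A, their pseudogenes with a cluster or near copy, and members of the enzyme lists with a region, of which not every one is named. The genes, lists and alternatives were chosen with earlier results of these data known. The rule for ubiquitin genes covers 2 further genes, which are not reported here, so the counts of clusters in ubiquitin genes are of UBB and RPS27A alone and not of every gene of the rule. Scripts were tested on simulated data. Python 3.11.15, numpy 2.4.6, pandas 2.3.3, pysam 0.24.0, samtools 1.23.1 and matplotlib 3.10.9 were used.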

Additional observations from a re-analysis of the deposited data

How the results depend on the processing

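With clusters at or above the median relative log odds of their replicate, the cluster of RPS27A was lost in Rep.A (0 left, by a score of 0.147 against 0.150) and kept in Rep.B, so reproducible regions fell from 1 to 0. With clusters whose sequence occurs once in the genome, 0 were left in Rep.A and 0 in Rep.B, by construction. Against clusters in exons of protein-coding genes alone, the share of covered bases was 1.32% in Rep.A and 0.949% in Rep.B, since the denominator is smaller. With windows of 30 bases, chosen after seeing the data, 86.4% of the windows of the RPS27A unit and 73.4% of those of the UBB units had more than 1 copy. Leaving out either replicate gave 1 region and 23 covered bases of the unit by construction, since the cluster has the same ends in both, so this is no sign of stability. Of the 8 listed genes, 6 had a region with a coverage of at least 10 reads. No paired analysis was possible because there is 1 condition. The depth of UBB is unknown, and the results for UBB and RPS27A rest on 1 site.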
